A study of Mus musculus with 12 samples.

Results

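Cytosolic ribosomal protein genes were followed in macrophages sorted from mouse tumours with or without S1PR1, one of the receptors through which cells sense the lipid sphingosine-1-phosphate. The members were the genes on the array whose symbol starts with Rpl or Rps followed by a digit, together with Rpsa, Rplp0, Rplp1 and Rplp2, without the Rps6 kinases, Rps19bp1, Rpl7l1 and pseudogene symbols. This gave 64 of the 21946 genes with a probe, 27 of the small and 37 of the large ribosomal subunit. Of these, 57 are core ribosomal protein genes, 6 are paralogs (Rpl3l, Rpl22l1, Rpl36al, Rpl39l, Rps4l and Rps27l) and 1 is a retroposed copy, Rps23rg1. Rps4l is annotated by RefSeq as a transcribed pseudogene. The core genes Rps27a, Rpl5, Rpl10 and Rpl11 were not analysed here, nor were the paralogs Rpl10l and Rpl26l1, because no probe is listed under these symbols. Each gene is represented by its brightest probe, and 22 members had more than 1.

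The groups were S1PR1 knockout PyMT (KO_PyMT), wild-type PyMT (WT_PyMT), S1PR1 knockout MCA (KO_MCA) and wild-type MCA (WT_MCA), with 2 arrays each. PyMT is a breast tumour, here in female mice, and MCA is a fibrosarcoma, here in male mice, all labelled C57BL/6. The RNA came from pooled, sorted cells with high CD11b and was amplified. The knockout allele, any Cre driver, the age of the mice and whether replicates came from separate pools are not given in the sources used here, so each p-value reflects only how far arrays of a group spread, which may be technical. The other 4 arrays were 1 mixed PyMT control, 2 mixed MCA controls and a repeat of KO_MCA replicate 1.

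Ribosomal proteins assemble with ribosomal RNA into the small subunit, which decodes the mRNA, and the large subunit, which joins amino acids. Most assemble in the nucleolus in equal amounts, and unused copies are degraded. Their mRNAs are among the most abundant in a cell and begin with a run of pyrimidines, the TOP motif, through which mTORC1 and the RNA-binding protein LARP1 control when they are translated and how long they last. In macrophages, growth factor and Toll-like receptor signals act on mTORC1, and several ribosomal proteins are reported to act outside the ribosome as well, in immune gene regulation and in the control of p53.

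All 10 macrophage markers listed (among them Csf1r, Adgre1, Cd68, Itgam and C1qa) were above background on both arrays of each of the 4 groups. S1pr1 has 1 probe, which exceeded background on 0 of 12 arrays (raw signals 76.0 to 88.2), so the genotype labels could not be checked on it. The KO_PyMT arrays had 10247 and 9894 genes above background, the WT_PyMT arrays 10538 and 11030, the KO_MCA arrays 11648 and 11382 and the WT_MCA arrays 11494 and 11809. The PyMT groups shared 1 BeadChip and the MCA groups another, so tumour, sex and BeadChip cannot be told apart, while KO and WT of a tumour shared a BeadChip. A member counts as above background where the deposited detection p was under 0.05. The genes tested needed this on at least 2 of the 8 group arrays, which 62 members met (26 small and 36 large subunit). Rpl39l, a testis paralog, was above background on 0 arrays and Rps4l on 1, and they were not tested. Above background on all 8 arrays were 52 members, 23 of the small and 29 of the large subunit.

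The start sites of the genes are shown first, since the TOP motif lies there and sets ribosomal protein mRNAs apart from most others. RefSeq promoters (GRCm38.p6) were matched for 53 members with 63 annotated start sites. Each sequence below is the 30 bases centred on the annotated start, 15 before it and 15 from it on, on the gene's strand and 5′ to 3′. Capitals mark an unbroken run of at least 8 C or T. The first 5 genes have such a run and the other 4 do not, and the same 9 are plotted by array further on.
Rps6, chr4:86857353-86857382, minus strand: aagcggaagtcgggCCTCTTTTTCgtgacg
Rps10, chr17:27635230-27635259, minus strand: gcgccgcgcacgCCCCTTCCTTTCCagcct
Rps18, chr17:33955651-33955680, minus strand: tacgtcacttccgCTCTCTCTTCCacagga
Rpl13a, chr7:45128731-45128760, minus strand: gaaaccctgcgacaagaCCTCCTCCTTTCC
Rpl38, chr11:114668565-114668594, plus strand: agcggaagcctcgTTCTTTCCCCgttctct
Rps13, chr7:116334176-116334205, minus strand: gagagcaaacgtcggtgagtggcgtcactt
Rps7, chr12:28635939-28635968, minus strand: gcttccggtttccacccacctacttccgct
Rpl24, chr16:55966260-55966289, plus strand: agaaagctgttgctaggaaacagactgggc
Rpl36a, chrX:134585639-134585668, plus strand: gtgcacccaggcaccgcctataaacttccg

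A run of at least 8 pyrimidines was present in 24 of the 63 member windows (38.1%) and in 12% of the 32851 windows of all promoters in the table. The share was 9 of 28 (32.1%) for the small subunit and 15 of 35 (42.9%) for the large subunit. The motif CCGGAAG, searched on both strands of the 300 bases around the start (250 before and 50 from it on), was present in 25 member promoters (39.7%) and in 8.86% of all. A window without a run says only that the letters are not there, since an annotated start can lie some bases from the one a cell uses. Of the members tested, 23 had a run and 29 had none, and their log2 changes differed little. The medians were -0.11 with a run and -0.11 without for KO against WT in PyMT, 0.08 and 0.05 for KO against WT in MCA, and -0.23 and -0.19 for PyMT against MCA.

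As a group the ribosomal protein genes stood lowest on the KO_PyMT arrays and highest on the KO_MCA arrays. Each member's log2 intensity was set against its own mean over the 8 group arrays. The median of this deviation over the 62 members tested was -0.16 and -0.17 on the KO_PyMT arrays, -0.03 and 0.0016 on the WT_PyMT arrays, 0.16 and 0.12 on the KO_MCA arrays, and 0.04 and 0.07 on the WT_MCA arrays. Replicates therefore lay close together, with a pooled SD of this median of 0.023 between replicates. KO_PyMT and WT_PyMT did not overlap, nor did KO_MCA and WT_MCA. In MCA the nearest arrays of the groups (0.1157 and 0.0746) lay slightly closer together than the KO_MCA replicates (0.1608 and 0.1157). Over all 1411 genes in the brightest 10% of those tested, KO_PyMT had medians of -0.033 and -0.027 and WT_PyMT -0.014 and 0.009. KO_MCA had 0.047 and 0.029 and WT_MCA 0.048 and 0.002. Bright genes thus shared the lack of overlap in PyMT, with a smaller gap, while in MCA their arrays overlapped. Members above their own mean numbered 17 and 12 on the KO_PyMT arrays, 29 and 32 on the WT_PyMT arrays, 49 and 48 on the KO_MCA arrays, and 33 and 46 on the WT_MCA arrays. Of the bright genes, 45.4% and 47% were above their own mean in KO_PyMT and 48.1% and 51.9% in WT_PyMT. The shares were 57.4% and 55.4% in KO_MCA and 57.8% and 50.7% in WT_MCA. The mixed PyMT control had a member median of -0.11 and the mixed MCA controls -0.02 and 0.05. In bulk samples such as these, fewer cells of a type and less RNA per cell cannot be told apart.

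**Figure D1:**
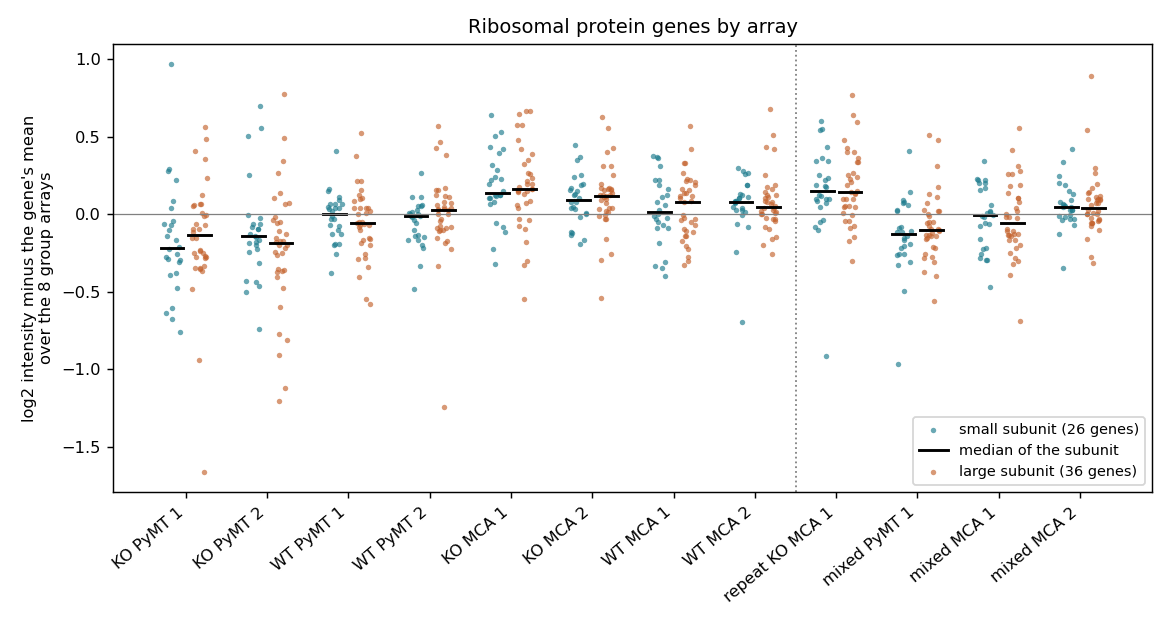
Log2 intensity of each ribosomal protein gene minus its own mean over the 8 group arrays (vertical axis), for each array (horizontal axis); points are genes, coloured by subunit, black lines are the medians of each subunit, and the dotted line parts the group arrays from the repeat and mixed arrays. The KO_PyMT medians lie below 0 and the KO_MCA medians above 0 in both subunits.

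Both subunits had this pattern. On the KO_PyMT arrays the small-subunit medians were -0.22 and -0.14 and the large-subunit medians -0.13 and -0.19. On the KO_MCA arrays they were 0.14 and 0.09 for the small and 0.16 and 0.12 for the large subunit. Neither subunit was the lower on both KO_PyMT arrays.

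The ribosomal protein genes had a smaller median range than genes of like brightness, a difference that was not tested. The range of a gene over the 8 group arrays had a median of 0.54 log2 units for the 52 members above background throughout, against 1.09 for all 6952 such genes. In the brightest 10% of the genes tested, which held 44 of the 62 members, the median range was 0.51 for the members and 0.78 for all 1411 genes. The narrowest range was that of Rpl38, a large-subunit protein whose loss in mouse embryos alters the translation of Hox mRNAs. It measured 11.06 and 11.14 in KO_PyMT against 11.02 and 11.18 in WT_PyMT, and 11.04 and 11.06 in KO_MCA against 11.02 and 11.04 in WT_MCA, a span of 0.16. Next came Rps21 (0.20), Rpl36al (0.22), a retrogene copy of Rpl36a, Rps25 (0.24), used by some viral mRNAs to recruit ribosomes, and Rps15a (0.27). Rps15a was above background on 3 of the 8 arrays, so its narrow range is that of a signal near background.

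The widest ranges belonged to members that were dim or whose replicates disagreed. They were Rpl22 (2.29), Rpl17 (1.85), Rpl26 (1.79), Rpl13a (1.73) and Rps18 (1.66). Rpl17 measured 5.44 and 4.18 in KO_PyMT against 5.75 and 5.53 in WT_PyMT, and 6.02 and 4.84 in KO_MCA against 5.95 and 5.29 in WT_MCA, and was above background on 7 of 8 arrays. In KO_PyMT and in KO_MCA its replicates lay further apart than the KO and WT means of either tumour. The dim members Rps20 and Rpl4 were each above background on 7 of 8 arrays, with 0.46 ± 0.37 and 0.15 ± 0.45 for KO against WT in PyMT and -0.03 ± 0.37 and 0.41 ± 0.45 in MCA. Over all members, the SD of the log2 difference between replicates was 0.38 for KO_PyMT and 0.31 for WT_PyMT, and 0.26 for KO_MCA and 0.26 for WT_MCA. Over all genes tested these SDs were larger, at 0.76 for KO_PyMT, 0.59 for WT_PyMT, 0.37 for KO_MCA and 0.48 for WT_MCA.

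In PyMT tumours most ribosomal protein genes measured lower in knockout than in wild-type macrophages, by small amounts. Of the 62 members, 47 were lower and 15 higher (75.8% lower, against 50.2% of all 14103 genes tested), with a median log2 change of -0.11, a ratio of 0.926, against -0.0009 for all genes. The quartiles of the member changes were -0.28 and -0.0015, and their range was -1.47 to 0.93. Both subunits shared this, with 19 of 26 small-subunit genes lower (median -0.11) and 28 of 36 large-subunit genes lower (median -0.13). Of the 44 members in the brightest 10%, 38 were lower with a median of -0.18, against a median of -0.03 for all genes there. By limma, with p adjusted over all 14103 genes, 0 members passed, and 0 of all genes did (0%). At an unadjusted p under 0.05 there were 6 members lower and 3 higher, where the shares over all genes were 6.08% lower and 4.78% higher (10.9% in either direction). Without KO_PyMT replicate 1, 108 of all genes passed after adjustment, and without KO_PyMT replicate 2, 33 did, with 0 members in both cases. In 28 members both KO_PyMT arrays lay below both WT_PyMT arrays, and in 10 both lay above, against 18.6% and 17.2% of all genes. With each array scaled to its median in place of quantile normalization, 36 of 62 members were lower, with a median of -0.04. The median was -0.19 without WT_PyMT replicate 1.

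Among small-subunit genes the smallest p in PyMT was that of Rps13, whose protein lies at the interface with the large subunit. It measured 9.89 and 9.79 in KO_PyMT, against 10.57 and 10.59 in WT_PyMT. Both KO_PyMT arrays lay below all 6 other group arrays, and the change was -0.74 ± 0.17 (SE, 2 arrays per group, 1.67-fold lower, limma adjusted p = 0.208). A second, dimmer Rps13 probe gave 0.52 in the opposite direction.

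Rps7, which is needed for processing of the small-subunit RNA and is mutated in some cases of the human anaemia named after Diamond and Blackfan, had 8.37 and 8.63 in KO_PyMT, against 8.93 and 9.14 in WT_PyMT. The arrays did not overlap, with a change of -0.54 ± 0.20 (1.45-fold lower, limma adjusted p = 0.401). Rps6, the protein phosphorylated by kinases downstream of mTORC1, had 7.29 and 7.51 in KO_PyMT, against 7.59 and 8.24 in WT_PyMT. Its change was -0.51 ± 0.29 (limma adjusted p = 0.596), and the gap between the nearest arrays of the groups was smaller than that between the WT_PyMT replicates. Rps26 (-0.40 ± 0.17), the retroposed copy Rps23rg1 (-0.38 ± 0.18) and Rps10 (-0.35 ± 0.18) also had both KO_PyMT arrays below both WT_PyMT arrays, with limma adjusted p of 0.472, 0.525 and 0.559.

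Other small-subunit genes with known roles had smaller differences. Rps14, a gene lost in a human bone marrow disorder with anaemia, had -0.25 ± 0.18, with 10.44 and 10.61 in KO_PyMT against 10.81 and 10.74 in WT_PyMT. Rps19, the gene most often mutated in Diamond-Blackfan anaemia, had 0.02 ± 0.18, with 10.72 and 10.75 in KO_PyMT inside the WT_PyMT values of 10.83 and 10.60. Rps3, reported in human cells to bind the transcription factor NF-κB, was higher, with means of 9.23 in KO_PyMT and 8.98 in WT_PyMT and no overlap of the arrays (0.26 ± 0.19, limma adjusted p = 0.688), while its second probe gave -0.49.

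Rps18, a protein of the small subunit's head, was the small-subunit gene with the smallest p among those higher in PyMT knockout. It measured 7.48 and 7.07 in KO_PyMT, against 6.92 and 6.18 in WT_PyMT, a change of 0.73 ± 0.30 (1.65-fold higher, limma adjusted p = 0.447). The groups did not overlap, but the WT_PyMT replicates lay as far apart as the group means, and the second Rps18 probe gave 0.08. Rpsa, also known as the laminin receptor, was above background on 2 of 8 arrays, both KO_PyMT, at 4.55 and 4.83, against 4.50 and 4.11 below background in WT_PyMT. Its KO_PyMT mean lay 1.25-fold above the bound set for WT_PyMT (limma adjusted p = 0.586), and it entered the test only through KO_PyMT.

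In the large subunit, Rpl22, whose loss in mice blocks the development of αβ T cells, had 4.29 and 5.36 in KO_PyMT, against 6.48 and 6.12 in WT_PyMT. Its KO_PyMT arrays were the lowest of the 8, with 1 of them above background, and the change was -1.47 ± 0.38 (2.78-fold lower, limma adjusted p = 0.247). Rplp0, the base of the stalk that recruits elongation factors, had 4.10 and 4.23 in KO_PyMT, both below background, against 4.97 and 5.51 in WT_PyMT, so it was at least 1.89-fold lower (limma adjusted p = 0.322). Its second probe gave 0.06. The stalk proteins proper, Rplp1 and Rplp2, had -0.27 ± 0.18 and -0.06 ± 0.17.

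Rpl24, the gene mutated in the belly spot and tail mouse, had 8.81 and 8.38 in KO_PyMT, against 9.19 and 9.45 in WT_PyMT. All other group arrays lay above the KO_PyMT pair, and the change was -0.72 ± 0.25 (1.65-fold lower, limma adjusted p = 0.377). Rpl26, reported in human cells to raise translation of p53 mRNA, had 7.27 and 6.49 in KO_PyMT, against 7.46 and 7.70 in WT_PyMT, with -0.70 ± 0.29 (limma adjusted p = 0.451). KO_PyMT replicate 2 lay furthest from the WT_PyMT arrays. Rpl39, which lines the exit tunnel, had -0.33 ± 0.18, and Rpl3, near the peptidyl transferase centre, had 0.00 ± 0.20.

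Rpl13a was among the large-subunit genes that measured higher in PyMT knockout. In human monocytes this protein leaves the ribosome after interferon-γ and silences inflammatory mRNAs. It had 7.21 and 7.64 in KO_PyMT, against 7.10 and 5.91 in WT_PyMT, a change of 0.93 ± 0.38 (1.90-fold higher, limma adjusted p = 0.453). The result rests on WT_PyMT replicate 2, without which the change was 0.33. Rpl6 had 5.18 and 5.59 in KO_PyMT, against 4.27 and 4.88 in WT_PyMT (0.81 ± 0.34, limma adjusted p = 0.453), and was above background on 6 of 8 arrays. Rpl14 had 4.85 and 4.44 in KO_PyMT, against 4.28 and 4.43 in WT_PyMT, both below background. Its change was 0.29 ± 0.21 (limma adjusted p = 0.687), and the nearest arrays of the groups were almost equal.

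Rpl23, a protein of the subunit interface that also binds Mdm2, had 13.36 and 13.22 in KO_PyMT, against 12.92 and 12.92 in WT_PyMT. These values did not overlap and differed by 0.37 ± 0.18 (limma adjusted p = 0.526). Its 3 other probes gave -0.33, -0.15 and -0.21, so the direction of Rpl23 depends on the probe.

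**Figure D2:**
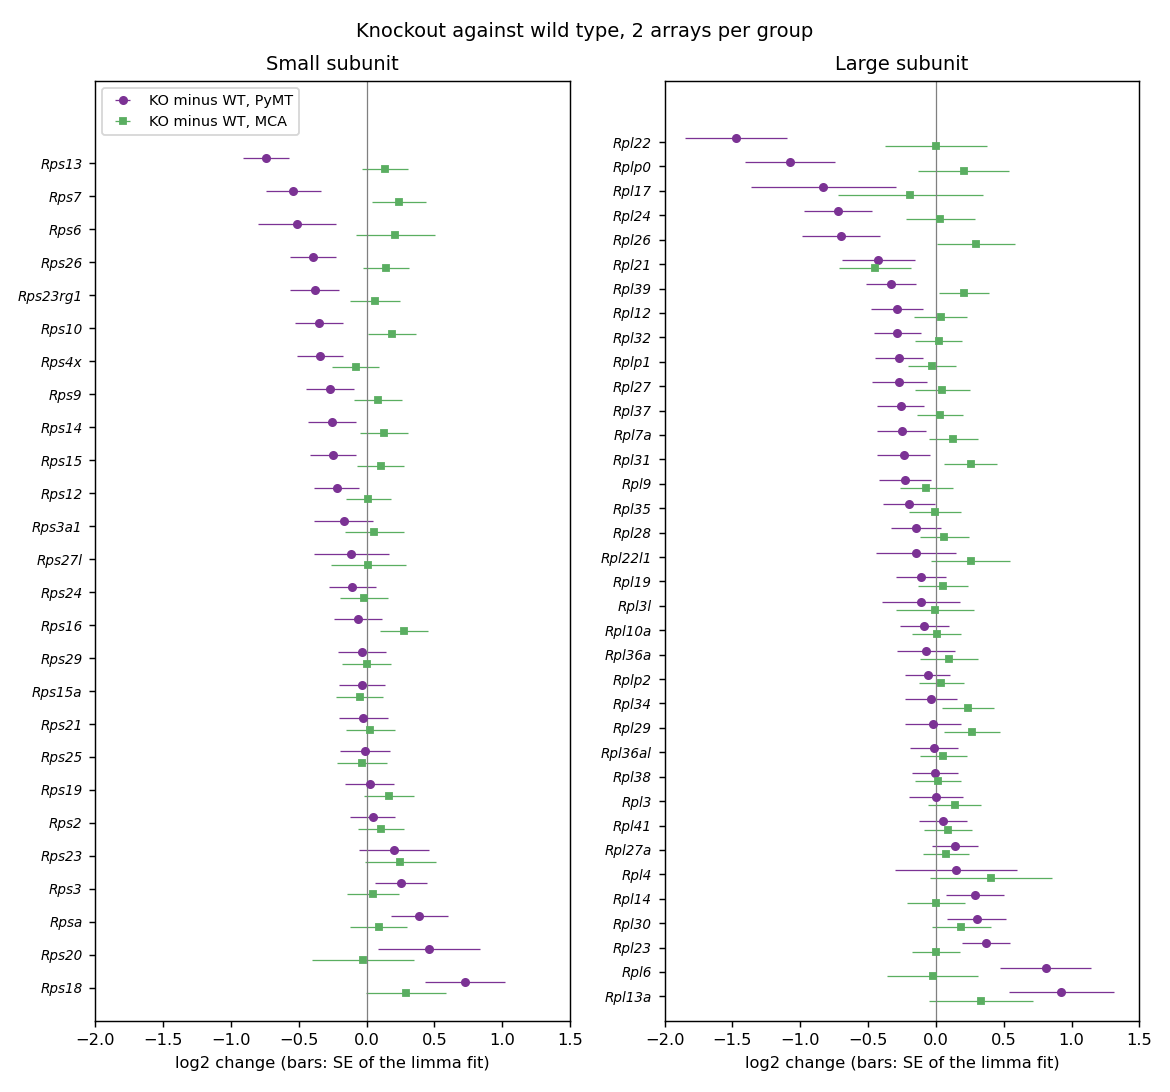
Log2 change of each ribosomal protein gene for KO minus WT in PyMT (circles) and in MCA (squares), by subunit, with bars of 1 SE of the limma fit; genes are ordered by the PyMT change. In PyMT 47 of 62 lie left of 0, and in MCA 47 of 62 lie right of 0.

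**Figure D3:**
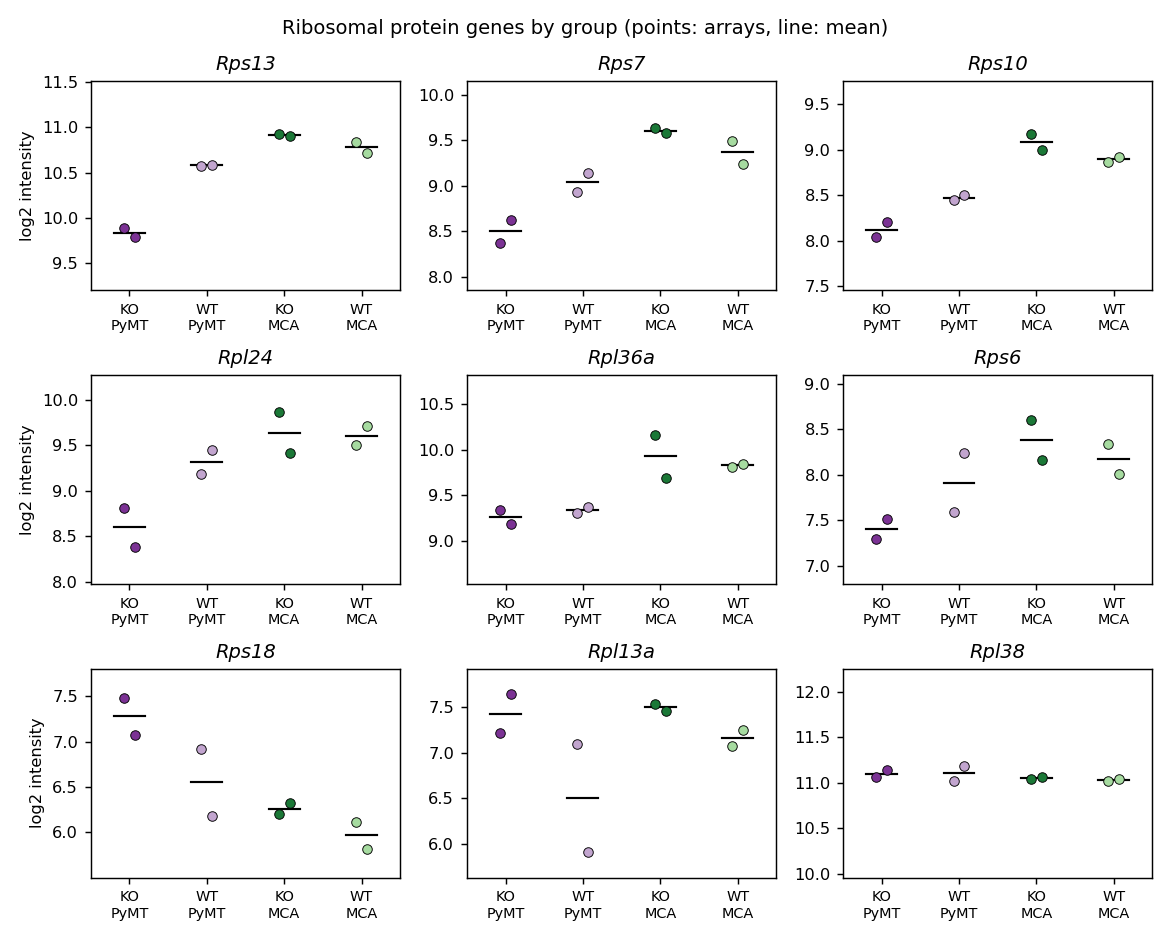
Log2 intensity of 9 ribosomal protein genes in each group, with 1 point per array and a line at the mean of 2 arrays; every panel spans the same number of log2 units. Rps13, Rps7 and Rpl24 are lowest in KO_PyMT, Rps10 and Rpl36a are lower in both PyMT groups, and Rpl38 is near level.

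In MCA tumours the ribosomal protein genes leaned the other way, with smaller differences. Of 62 members, 47 were higher in KO_MCA than in WT_MCA, 13 were lower and 2 were equal, with a median log2 change of 0.06 (a ratio of 1.04), against -0.0005 for all genes tested. The quartiles were 0.0044 and 0.18. Rpl23 and Rps29 were equal because quantile normalization gave both groups the same pair of values. The small subunit had 20 of 26 genes higher (median 0.09) and the large subunit 27 of 36 (median 0.05). By limma 0 members passed and 0 of 14103 genes did (0%), and 0 members had an unadjusted p under 0.05, against 1.57% of all genes (0.901% higher and 0.674% lower). Both KO_MCA arrays lay above both WT_MCA arrays in 21 members and below them in 1, against 15.8% and 15% of all genes. Without KO_MCA replicate 1 there were 41 members higher and 21 lower, while leaving out KO_MCA replicate 2 gave a median of 0.09 and leaving out WT_MCA replicate 2 one of 0.11.

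The genes with the smallest p in MCA knockout differed by about their error. Rps16, a small-subunit protein whose tail reaches the transfer RNA, had 9.47 and 9.40 in KO_MCA, against 9.08 and 9.23 in WT_MCA, a change of 0.28 ± 0.18. Rpl31, at the rim of the exit tunnel, had 10.11 and 9.80 in KO_MCA, against 9.60 and 9.81 in WT_MCA, with 0.25 ± 0.20, and its arrays overlapped. Rpl29 had 7.05 and 7.21 in KO_MCA, against 6.89 and 6.83 in WT_MCA, with 0.27 ± 0.21.

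Lower in MCA knockout were Rpl21, Rps4x and Rpl9. Rpl21, a large-subunit protein mutated in a human form of hair loss, had 4.54 and 4.57 in KO_MCA, against 5.29 and 4.72 in WT_MCA, with -0.45 ± 0.27. It is the member in which both KO_MCA arrays lay below both WT_MCA arrays, and its 2 other probes gave -0.81 and -0.64. Rps4x, encoded on the X chromosome, had -0.08 ± 0.17, and Rpl9 had -0.07 ± 0.19. The limma adjusted p was 1 for each gene named here. Rps13, Rps7 and Rps6 measured 0.13 ± 0.17, 0.24 ± 0.20 and 0.21 ± 0.29 in MCA.

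Between the tumours, the difference of the knockout effects (PyMT minus MCA) was below 0 in 49 of 62 members, with a median of -0.20, against -0.0051 for all genes. No member passed by limma (0 members, 0% of all genes), while 5 had an unadjusted p under 0.05 in that direction, against 3.38% of all genes, and 0 in the other, against 2.38% (5.76% in either direction). Rps13 had a difference of -0.88 ± 0.24 (limma adjusted p = 0.656), Rpl22 -1.47 ± 0.53 (0.800) and Rps7 -0.78 ± 0.28 (0.807). On the other side were Rpl6 (0.83 ± 0.48), Rpl23 (0.37 ± 0.25) and Rpl13a (0.59 ± 0.54), with limma adjusted p of 0.912, 0.929 and 0.942. The knockout effect on these genes was thus not shown to differ between the tumours. The median was -0.11 without KO_MCA replicate 1 and -0.10 with median scaling.

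Over both tumours together the opposite leanings offset each other. Of 62 members, 37 were lower and 25 higher in knockout, with a median of -0.04, and 0 members passed by limma (0% of all genes). With array weights the direction turned, with 29 lower and 33 higher and a median of 0.0056. At an unadjusted p under 0.05 there was 1 member lower and 1 higher, against 2.65% and 2.47% of all genes (5.12% in either direction). The 4 knockout arrays lay wholly below the 4 wild-type arrays in 0 members and wholly above in 0, against 1.23% and 1.18% of all genes. Rpl21 was lower in both tumours, with -0.44 ± 0.18 over both (unadjusted p = 0.0402, limma adjusted p = 0.930). Rps18 was higher in both, with 0.51 ± 0.21 (unadjusted p = 0.0438, limma adjusted p = 0.930). Rpl22 (-0.74 ± 0.36), Rps4x (-0.21 ± 0.13), Rpl13a (0.63 ± 0.27) and Rpl30 (0.24 ± 0.15) followed by p. The median was -0.0072 and -0.0073 without KO_PyMT replicate 1 and 2, and -0.016 and -0.014 without WT_PyMT replicate 1 and 2. Leaving out KO_MCA replicate 1 gave -0.077, and leaving out WT_MCA replicate 1 gave -0.072.

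**Figure D4:**
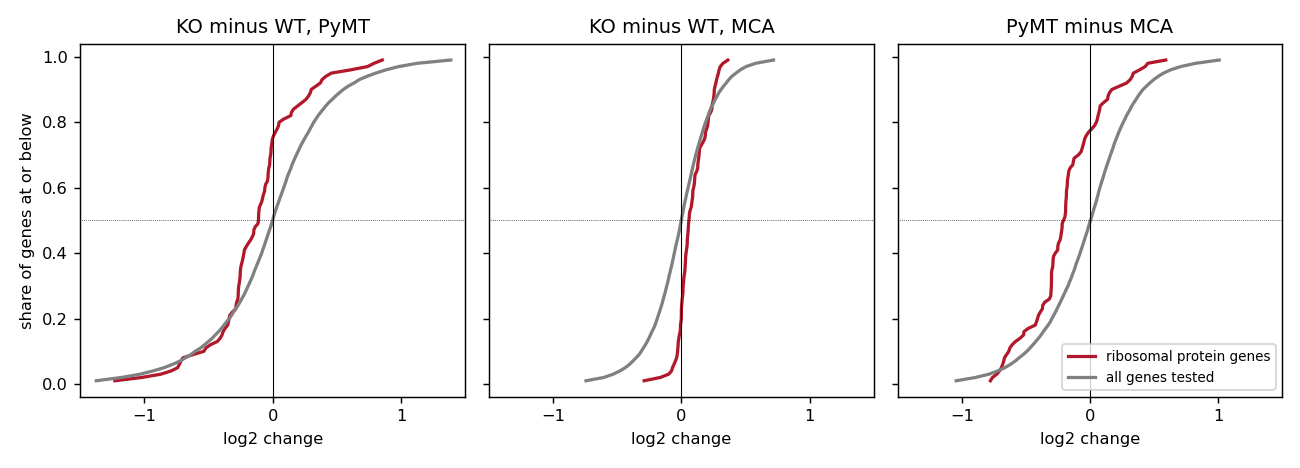
Cumulative share of genes (vertical axis) by log2 change (horizontal axis), drawn at the 1st to 99th percentile, for the ribosomal protein genes (red) and all genes tested (grey). The red curve has its median at -0.11 for KO minus WT in PyMT, 0.06 for KO minus WT in MCA and -0.21 for PyMT minus MCA, and the grey curve has its median near 0 in each.

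Set against MCA, the PyMT macrophages had lower values in most ribosomal protein genes, over both genotypes. Of 62 members, 48 were lower and 14 higher in PyMT, with a median log2 change of -0.21 (a ratio of 0.866), against 0.0036 for all genes. This comparison uses the same arrays as those of the genotypes. Small-subunit genes were lower in 21 of 26 (median -0.19) and large-subunit genes in 27 of 36 (median -0.24). By limma 0 members passed, while 23 of 14103 genes did (0.163%). That count was 8 without either KO_MCA array, 9 without WT_MCA replicate 2 and 14 without WT_PyMT replicate 1. At an unadjusted p under 0.05 there were 15 members lower and 2 higher, against 8.5% and 6.54% of all genes (15% in either direction). All 4 PyMT arrays lay below all 4 MCA arrays in 19 members and above them in 1, against 5.53% and 4.96%. With median scaling the member median was -0.40, where the median of all genes was itself -0.13 and that of the brightest 10% -0.30.

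Rps10, a small-subunit protein near the mRNA entry, had the smallest p. It had 8.04 and 8.21 in KO_PyMT and 8.45 and 8.50 in WT_PyMT, against 9.17 and 8.99 in KO_MCA and 8.87 and 8.92 in WT_MCA. The tumours did not overlap, and the difference was -0.69 ± 0.16 (1.62-fold lower in PyMT, limma adjusted p = 0.127). Rps7 had 9.63 and 9.58 in KO_MCA and 9.50 and 9.24 in WT_MCA, all above its PyMT values, with -0.72 ± 0.19 (1.64-fold lower, limma adjusted p = 0.169).

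Rpl36a, a large-subunit protein near the exit site of transfer RNA, had 9.34 and 9.18 in KO_PyMT and 9.31 and 9.37 in WT_PyMT, against 10.17 and 9.69 in KO_MCA and 9.81 and 9.84 in WT_MCA. It differed between tumours by -0.58 ± 0.15 (1.49-fold lower in PyMT, limma adjusted p = 0.153) and between genotypes by -0.08 ± 0.21 in PyMT and 0.10 ± 0.21 in MCA. Its near copy Rpl36al had 0.05 ± 0.12 between tumours, on a probe of its own. Rps23rg1 (-0.52 ± 0.15), Rps13 (-0.63 ± 0.19), Rpl28 (-0.41 ± 0.13), Rpl24 (-0.67 ± 0.22) and Rpl26 (-0.77 ± 0.26) followed, with limma adjusted p of 0.185 to 0.233. The second probe of Rps13 gave 0.02 and that of Rpl28 gave 0.30, so neither shared the direction of the brightest probe. Rps6 had -0.62 ± 0.23 (limma adjusted p = 0.271).

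The smallest p among members higher in PyMT belonged to Rps18, Rpl23 and Rpsa. Rps18 had 6.20 and 6.32 in KO_MCA and 6.12 and 5.82 in WT_MCA. All but WT_PyMT replicate 2, at 6.18, lay above these, and the difference was 0.80 ± 0.21 (1.74-fold higher, limma adjusted p = 0.165). The second Rps18 probe gave 0.11. Rpl23 had 0.46 ± 0.14 (limma adjusted p = 0.198) and was the 1 member with all PyMT arrays above all MCA arrays, but its 3 other probes gave -0.36, -0.16 and -0.16. This separation of Rpl23 was present only after normalization. Its raw signals on the WT_PyMT arrays (6645.2 and 7074.9) lay below those on the MCA group arrays (7089.4 to 7640.2). Rpsa was above background on the 2 KO_PyMT arrays and on 0 of the 6 others, so it entered the test only through KO_PyMT. Its PyMT mean lay 1.21-fold above the bound set for MCA (limma adjusted p = 0.347), and a difference between the tumours was not shown. The repeat of KO_MCA replicate 1 measured 4.57 and the mixed MCA controls 4.11 and 4.75, against 4.55 and 4.83 in KO_PyMT.

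One sample was hybridised on both BeadChips, so for this sample the BeadChips can be set side by side within 1 tumour, with 1 array on each. On the repeat array, which lay among the PyMT arrays, the ribosomal protein genes of KO_MCA replicate 1 had a median deviation of 0.14, against 0.16 on the array of that sample among the MCA arrays. The median difference between both arrays was -0.01 over 62 members, with 33 of them lower on the repeat, and the SD was 0.23, against 0.28 for all genes. Rps10 measured 8.99 on the repeat and 9.17 on the first array, Rps7 9.68 and 9.63, and Rps13 10.96 and 10.93. Rpl36a was 9.51 on the repeat and 10.17 on the first, a gap larger than its difference between tumours, and Rps18 was 5.60 and 6.20. With the repeat array in place of the first, the median for PyMT against MCA was -0.21. For all other samples the BeadChip goes with the tumour, and the sex of the mice goes with it throughout. The part of either in the difference between tumours was not tested.

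**Figure D5:**
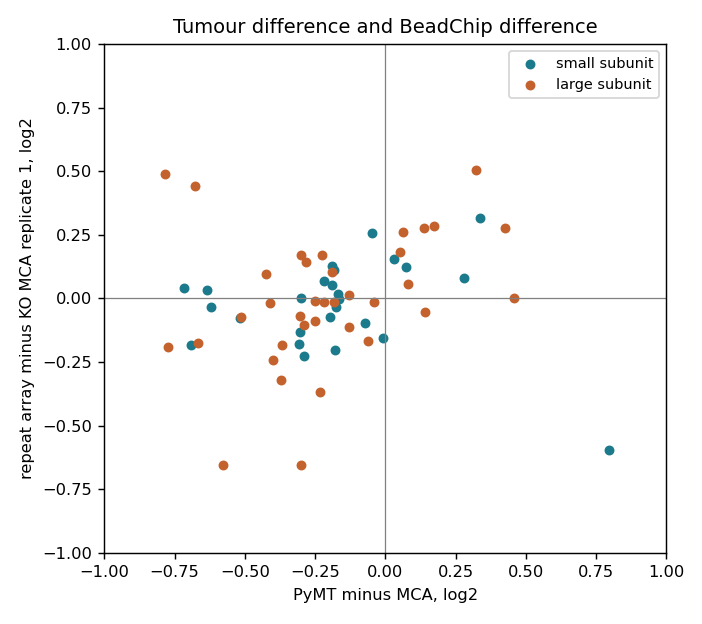
Each point is a ribosomal protein gene, coloured by subunit: PyMT minus MCA over both genotypes (horizontal axis, log2) against the repeat array minus the first array of KO_MCA replicate 1 (vertical axis, log2). The horizontal values have a median of -0.21 and the vertical ones of -0.01.

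Of the paralogs tested, Rpl22l1, Rps27l and Rpl36al differed by less than 2 SE for KO against WT in either tumour and for PyMT against MCA. Rpl22l1, which can stand in for Rpl22 in mice, had -0.15 ± 0.29 in PyMT, 0.26 ± 0.29 in MCA and 0.14 ± 0.21 between tumours, with 6.47 and 6.44 in KO_PyMT, against 6.17 and 7.03 in WT_PyMT. Rps27l, a p53 target in human cells, had -0.11 ± 0.28, 0.01 ± 0.28 and -0.31 ± 0.18. Rpl36al differed by at most 0.05 in any of these. Rpl3l, a form of Rpl3 made in striated muscle, was above background on 1 KO_PyMT array, 2 WT_PyMT arrays and 0 of the 4 MCA arrays. It entered the test only through PyMT, where its mean lay 1.32-fold above the bound set for MCA (limma adjusted p = 0.352). KO_PyMT replicate 2, at 4.17, lay among the MCA group arrays (4.16 to 4.24). The mixed MCA controls measured 4.67 and 4.55, so a difference of Rpl3l between the tumours was not shown.

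For the genes with several detected probes, the probes often disagreed in PyMT. There were 18 such genes with 25 further probes. Of these 25, 12 had the sign of the brightest probe for KO against WT in PyMT, 18 did for KO against WT in MCA and 16 did for PyMT against MCA. The further probes are dimmer, and their median change was -0.21 in PyMT, 0.15 in MCA and -0.16 between tumours. The probes of Rps12, Rps24 and Rps9 gave values below 0 in PyMT throughout, while Rpl28, Rpl31 and Rpl38 each had a further probe at 0.92, 0.49 and 0.63. The array also lists 33 ribosomal pseudogene symbols on 34 probes, which were left out, and near-identical transcripts can share signal with the members.

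Other genes of the pathway were looked at beside the members. The other TOP mRNAs, which encode elongation and initiation factors and their partners, had 17 of 20 genes tested, with 11 lower in PyMT knockout (median -0.08), 10 higher in MCA knockout (median 0.08) and 13 lower in PyMT than in MCA (median -0.20). Npm1, a nucleolar chaperone of ribosome assembly, measured -0.72 ± 0.21 for KO against WT in PyMT and -0.83 ± 0.20 for PyMT against MCA (limma adjusted p = 0.292 and 0.144). Eef1b2, an exchange factor of elongation factor 1, measured -0.55 ± 0.19 in PyMT knockout and 0.25 ± 0.19 in MCA knockout (limma adjusted p = 0.369 and 1). Of these and the lists that follow, 0 genes passed in any comparison.

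Mitochondrial ribosomal proteins, which belong to a separate ribosome, had 73 of 76 genes tested and showed medians of the same signs. In PyMT knockout 48 were lower (median -0.22), in MCA knockout 44 were higher (median 0.07), and in PyMT against MCA 55 were lower (median -0.27). Mrps24 had -1.19 ± 0.27 in PyMT knockout and -1.20 ± 0.27 between tumours (limma adjusted p = 0.200 and 0.126), and Mrps7 had 1.90 ± 0.55 in PyMT knockout (limma adjusted p = 0.286). The ribosome biogenesis genes, 32 of which were tested, were split in PyMT knockout, with 15 lower and 17 higher (median 0.0014), and 22 were lower in PyMT than in MCA (median -0.26). Ebna1bp2, needed for large-subunit assembly, had -1.27 ± 0.22 in PyMT knockout (limma adjusted p = 0.152), and the nucleolar protein nucleolin, Ncl, had 0.66 ± 0.22 (limma adjusted p = 0.359).

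The list of growth control of translation holds genes of the mTORC1 pathway beside others such as Myc, Mxd1 and Mdm2. Of its 15 genes tested, 7 were lower and 8 higher in PyMT knockout. Mtor, the kinase itself, had 5.84 in PyMT and 6.43 in MCA, a difference of -0.59 ± 0.14 (limma adjusted p = 0.139). Eif4ebp2, an inhibitor of cap-dependent translation that mTORC1 inactivates, had 8.55 in PyMT and 7.81 in MCA, a difference of 0.74 ± 0.17 (limma adjusted p = 0.127). Tsc1, a brake on mTORC1, had 0.79 ± 0.36 in PyMT knockout and -0.41 ± 0.36 in MCA knockout (limma adjusted p = 0.507 and 1). Tsc2 had the opposite sign in PyMT knockout, at -0.34 ± 0.28, and -0.46 ± 0.20 between tumours (limma adjusted p = 0.719 and 0.326). Mxd1 had the smallest p of the list in PyMT knockout, with -0.88 ± 0.36 (limma adjusted p = 0.451). Between tumours 9 genes of the list were lower and 6 higher in PyMT.

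Cell type markers and the number of genes detected also differed between groups, and their part in the results was not tested. Fewer genes were detected on the KO_PyMT arrays than on the WT_PyMT arrays, while KO_MCA and WT_MCA overlapped. All PyMT group arrays had fewer than all MCA group arrays. The summed log2 level of the 10 macrophage markers was 84.43 to 85.54 in KO_PyMT against 87.04 to 87.42 in WT_PyMT. In MCA it was 87.24 to 88.68 in KO_MCA against 89.93 to 90.46 in WT_MCA. This sum was lower in knockout in both tumours, which is the sign of the ribosomal protein median in PyMT but not in MCA. For PyMT against MCA 8 of the 10 markers were lower, with a median of -0.30, again the sign of the ribosomal protein median. T and NK cell markers, 6 of 9 with a probe, summed to 28.81 to 30.25 in KO_PyMT against 26.04 to 27.41 in WT_PyMT, and 25.44 to 25.77 in KO_MCA against 25.15 to 25.34 in WT_MCA. Of these 6, 3 were above background on both KO_PyMT arrays, 2 on both WT_PyMT arrays, and 1 on both arrays of each MCA group. The T cell gene Cd3g was below background on both arrays of each group. Fibroblast and sarcoma markers, all 9 with a probe, summed to 38.59 to 39.29 in KO_PyMT against 38.84 to 41.26 in WT_PyMT, and 42.66 to 42.97 in KO_MCA against 39.90 to 51.61 in WT_MCA. Epithelial markers, all 9 with a probe, summed to 40.68 to 42.39 in KO_PyMT against 42.77 to 45.02 in WT_PyMT, and 39.36 to 39.50 in KO_MCA against 39.38 to 39.59 in WT_MCA. Above background on both arrays were 4 of these 9 markers for WT_PyMT, 2 for KO_PyMT and 1 for either MCA group. Epcam and Krt8 were below background on both arrays of KO_PyMT, KO_MCA and WT_MCA, and the milk genes Csn2 and Wap on both arrays of each group. Dendritic cell markers, all 6 with a probe, summed to 28.47 to 30.47 in KO_PyMT against 30.60 to 31.65 in WT_PyMT, and 28.47 to 28.59 in KO_MCA against 26.49 to 27.29 in WT_MCA. The median log2 change of the 5 dendritic cell markers tested was -0.40 for KO against WT in PyMT and 0.31 in MCA, the signs of the ribosomal protein medians, but 0.27 for PyMT against MCA, the opposite sign. The 4 endothelial markers tested had medians of -0.10, 0.23 and 0.06 in the same comparisons, with the same signs as the dendritic cell markers.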

How the data were processed

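RNA of sorted tumour macrophages was measured on 12 single-colour Illumina BeadChip arrays. The deposited intensity per probe is a bead signal without normalization, per the file headers. The same file holds the deposited detection p-value per probe and array, computed by a test that the labels and headers do not name. The authors also deposited normalized intensity values, made by a method not given in the sources used here, which served as an alternative. Per array they rank probes as the unnormalized signal does (Spearman's rho 0.9998 to 1), their medians are 88.7 to 90.0, and they are linear and not centred.

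With limma 3.58.1 in R 4.3.3, neqc inferred the background of each array from signal and detection p, added an offset of 16, quantile normalized all 12 arrays and took log2. Probes with detection p under 0.05 on at least 2 of 8 group arrays were kept (26748 of 46237), and the brightest probe stood for a gene, giving 14103 genes. Symbols came from the platform table, with 937 updated through RefSeq. A 4-group limma model (residual df 4) tested KO against WT in each tumour and their difference, and a model with genotype and tumour as additive terms (residual df 5) gave KO against WT for the tumours combined and PyMT against MCA. Tests were two-sided, with Benjamini-Hochberg adjustment across the 14103 genes and a threshold of 0.05. Levels of different probes are not compared. For a gene dim on every array of a group or tumour, a fold called a bound or given as at least was set per array. It used the lowest detected signal of the array, or the measured signal where that was higher. Precision is limited by having 2 arrays per group.

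The members, lists and tests were chosen with earlier results of these data known. Genes named are the 3 with the smallest p per direction and comparison, the 5 widest and narrowest ranges, members with listed roles, paralogs and dim members. Some further members and probes were named after their values were seen. The fit was tested on simulated arrays. Alternatives changed background correction, normalization, filter, probe choice, array weights, arrays fitted, the repeat array and a replicate block.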

Additional observations from a re-analysis of the deposited data

How the results depend on the processing

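The count of ribosomal protein genes passing limma was 0 under each of the 102 alternatives run over the 5 comparisons. Of all genes, 108 and 33 passed in PyMT without KO_PyMT replicate 1 and 2, 7 with no background step, 6 with the authors' own normalization and 4 without the filter, against 0. For PyMT against MCA 38 passed with normexp, 47 without background correction, 44 from the authors' values, 78 with median scaling, 14 with detection required on all 8 arrays and 8 to 24 with each array left out, against 23. The median log2 change of the members kept its sign under all alternatives run except array weights over both tumours. For KO against WT in PyMT it was -0.043 with median scaling, -0.15 among genes above background on all 8 arrays, -0.15 by the mean of probes and -0.19 to -0.11 when each array was left out. For KO against WT in MCA it was 0.085 by the mean of probes and 0.059 to 0.11 with each array left out. For the difference of the knockout effects it was -0.18 with normexp, -0.17 without background correction, -0.10 with median scaling, -0.17 from the authors' normalized values, -0.23 by the mean of probes and -0.27 to -0.11 with each array left out. For KO against WT over both tumours it was -0.012 with median scaling, 0.0056 with array weights and -0.077 to -0.0072 with each array left out. For PyMT against MCA it was -0.18 without background correction, -0.40 with median scaling, -0.18 from the authors' normalized values and -0.24 to -0.18 with each array left out. The causes were not tested.

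Of 605 single-gene values under alternatives, 6 reversed. Rpl9 in MCA was 0.014 with the repeat array and -0.22 to 0.076 with each array left out, above 0 without KO_MCA replicate 2 or WT_MCA replicate 1. The difference for Rpl13a was -0.0018 to 1.19 with each array left out, below 0 without WT_PyMT replicate 2. Rpl23 by the mean of probes was -0.095 for that difference and -0.057 for PyMT against MCA. Where an array was left out, the lone array of its group is assumed to vary like the others.

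Replicate numbers did not pair the samples: deviations of same-numbered arrays correlated at -0.005 in PyMT and 0.079 in MCA. The fit with the replicate number as a block left the medians at -0.11 in PyMT, 0.06 in MCA, -0.20 for the difference, -0.04 over both tumours and -0.21 for PyMT against MCA, and called 0 members and 21 of all genes in the last. Signal near background limits the 10 members tested that were dim on some array, since the offset of 16 understates the changes of dim genes.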
